A study of Mus musculus with 18 samples.

Results

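The keratins of the interfollicular epidermis were followed across mouse skin flaps in 9 genes, the basal pair Krt5 and Krt14, the spinous pair Krt1 and Krt10, and an upper class of Krt2, Krt77, Krt78, Krt79 and Krt80. The 9 genes were taken by name from a deposited table of 27743 genes, and all 9 were found. RNA was measured at day 7 in flaps lying over printed mesh-like spacers and in flaps without further treatment. The spacer groups are D15L100, D15L150, D15L200, D100L150 and D150L150, and the untreated group is Control, with 3 libraries each. The labels give D and L no unit or meaning, and they give no strain, age or sex. Nor do they say whether the libraries of a group come from separate animals, so each p-value rests on the spread among libraries of a group, part of which may be technical. The series asks how topology regulates cell differentiation in place.

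Keratins are the intermediate filament proteins of epithelial cells, and each filament pairs a type I with a type II keratin. In the epidermis, dividing cells on the basement membrane make Krt5 and Krt14. Cells that leave that layer switch to Krt1 and Krt10, the pair of the spinous layer. Krt2 belongs to the uppermost living layers, in the mouse mainly in ear, tail and sole skin, and Krt77 is a type II keratin made above the basal layer. Krt79 marks the upper hair follicle and sebaceous duct of the mouse, so it is not strictly interfollicular, and Krt80 is a keratin associated with desmosomes in differentiating epithelia. Krt78 is placed in the upper class by the grouping alone, and no layer is assumed for it.

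In GRCm38 all 9 genes lie on the minus strand. The type II genes are on chromosome 15, with Krt80 at 101347444 to 101370162, Krt5 at 101707070 to 101712898, Krt2 at 101810689 to 101818169 and Krt1 at 101845426 to 101850794. Farther along are Krt77 at 101858731 to 101869705, Krt79 at 101929332 to 101940324 and Krt78 at 101946001 to 101954287. The type I genes are on chromosome 11, Krt10 at 99385254 to 99389364 and Krt14 at 100203162 to 100207548. Values are FPKM, counted fragments scaled to gene length and to the library's total. The gene length behind the deposited Krt10 values is 10555 bases, which is 4.99 times the joined exons of the gene in GENCODE. For Krt78 it is 1.6 times, and for Krt79, Krt80 and Krt1 0.44, 0.52 and 0.55 times. Levels of different members are therefore compared only with that in mind, while the ratio of a gene's FPKM between libraries does not depend on its length. Once 1 FPKM is added before taking logs, as in the changes below, length does matter for low values. Krt10 in Control 1 had 4.003 FPKM with the recorded length, and the GENCODE length would give 19.985.

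RefSeq promoters of GRCm38.p6 were available for 7 of the 9 members, all but Krt1 and Krt80. The 120 bases upstream of the start are printed for the basal Krt5, the spinous Krt10, and Krt2 and Krt77, the upper-class members with the most restricted and the most variable levels. Krt5 spans chr15:101712906-101713025, Krt10 chr11:99389365-99389484, Krt2 chr15:101818170-101818289 and Krt77 chr15:101869706-101869825, each read 5′ to 3′ on the gene's strand. Capitals mark matches to TATATA or GATAAAA.
Krt5: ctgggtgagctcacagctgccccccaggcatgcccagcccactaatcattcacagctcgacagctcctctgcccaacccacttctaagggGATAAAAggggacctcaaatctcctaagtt
Krt10: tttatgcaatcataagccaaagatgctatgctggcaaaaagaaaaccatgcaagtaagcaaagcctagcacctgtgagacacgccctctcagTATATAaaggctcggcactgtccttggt
Krt2: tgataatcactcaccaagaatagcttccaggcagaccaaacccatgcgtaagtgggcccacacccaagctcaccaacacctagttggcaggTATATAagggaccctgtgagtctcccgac
Krt77: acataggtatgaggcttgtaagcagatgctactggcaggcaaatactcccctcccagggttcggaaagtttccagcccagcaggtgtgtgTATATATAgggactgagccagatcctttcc
TATATA starts at -28 in Krt10, at -29 in Krt2 and, in overlapping copies, at -30 and -28 in Krt77, counted from the base before the start as -1. GATAAAA starts at -30 in Krt5 and also in Krt78. Neither is in the windows of Krt79 and Krt14, and the Krt14 window was not printed because that RefSeq start lies inside the GENCODE gene. The 2 strings were chosen after the sequences had been read. On either strand TATATA occurs in 2.51% and GATAAAA in 1.24% of 32851 promoter windows of this length. Starting between -40 and -20 on the gene's strand, they occur in 0.95% and 0.207%. The string TATAAA was searched too. Among the 7 members' windows it was found only in Krt10, at -26, and it starts at those positions in 1.99% of all windows.

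Each library held 28422344 to 35327357 counted fragments, and 11778 to 12488 genes reached 1 FPKM. D100L150 1 and Control 1 stood apart from the other libraries. On the first principal component of all tested genes, which carried 37.7% of the variance, they scored -49.7 and -69.9, and the other 16 scored -23.9 to 37.5. Summed FPKM of 10 skeletal muscle genes lay between 1948 and 18020 in spacer flaps and between 7589 and 17304 in Control flaps. The 7 fibroblast, 7 endothelial, 8 immune and 5 adipocyte genes on the marker lists were all detected in each group, so every library is mixed tissue. None of them was called over the spacer mean, and the median change on the log2(FPKM + 1) scale was 0.25 for fibroblast, -0.81 for endothelial, 0.039 for immune and -0.063 for adipocyte genes, with all 7 endothelial estimates below 0 in each spacer group. Summed endothelial FPKM was 85.5 to 268 in spacer and 153 to 526 in Control libraries, summed immune FPKM 2626 to 11657 in spacer and 3336 to 7564 in Control libraries, and summed fibroblast FPKM 3333 to 12388 in spacer and 3573 to 10131 in Control libraries. D100L150 1 and Control 1 had the highest endothelial and immune sums and the lowest fibroblast sums of their groups. The part of these cell types in the keratin changes was not tested. In mixed tissue, a difference in the number of keratinocytes and one in keratin RNA per keratinocyte cannot be told apart.

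Changes below are given as log2(FPKM + 1) in 1 group minus that in another, with limma's standard error from 1 fit to all 18 libraries. P-values from limma were adjusted by Benjamini-Hochberg over 13078 genes, and a gene under 0.05 after adjustment was called. All 9 members were among those genes. Krt2 passed the filter of 1 FPKM in 3 libraries through D15L150 1 to 3, D15L100 2 and D15L200 2, so a difference of those libraries from the rest is partly fixed by the filter.

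Krt14 was the member that separated spacer from Control flaps most cleanly. It had 2061, 2512 and 1881 FPKM in D15L100 1 to 3, 1791, 2555 and 4114 in D15L150, and 3892, 2717 and 4651 in D15L200. In D100L150 it had 4554, 3966 and 3336 FPKM and in D150L150 4230, 4005 and 3996, against 788, 1711 and 1692 in Control. All 15 spacer libraries lay above all 3 Control libraries, and Krt14 was the only member of which this was so. Over all genes tested, 0.795% were higher without overlap in this way. Krt14 averaged 3351 ± 1000 FPKM in spacer flaps (SD, n = 15) and 1397 ± 527 in Control flaps (SD, n = 3), a 2.40-fold difference.

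Across the mean of the spacer groups Krt14 rose by 1.28 ± 0.25 (SE, adjusted p = 0.0158 with limma). By group, Krt14 rose by 1.63 ± 0.32 in D150L150 (adjusted p = 0.025), by 1.57 ± 0.32 in D100L150 (adjusted p = 0.0323) and by 1.48 ± 0.32 in D15L200 (adjusted p = 0.0375). The changes in D15L150 and D15L100, 1.01 ± 0.32 and 0.70 ± 0.32, did not pass, and without Control 1 they were 0.65 and 0.33. Neighbouring group means from D15L100 to D150L150 overlapped, and only the step from D15L100 down to Control was free of overlap. The rise over the spacer mean held with any 1 of 17 libraries left out. Without Control 1 it was 0.91 ± 0.24 with an adjusted p of 0.208, and then no gene of the 13078 passed, while 1430 had an unadjusted p under 0.05. The calls in D15L200, D100L150 and D150L150 ended without Control 1 too, and D15L200 kept its call in 8 of 18 such fits, D100L150 in 15 and D150L150 in 14.

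Krt5, the type II partner of Krt14, moved in the same direction by less. It had 777, 1357 and 1276 FPKM in D15L100, 1086, 1318 and 2728 in D15L150, and 1998, 1354 and 1772 in D15L200. D100L150 had 1240, 1626 and 1399 FPKM and D150L150 1841, 1760 and 2516, against 429, 1458 and 1062 in Control. Only D150L150 lay wholly above Control. The change over the spacer mean was 0.81 ± 0.32 and did not pass (adjusted p = 0.156 with limma), and without Control 1 it was 0.30 ± 0.29. With 1 FPKM added to each level, Krt14 was 1.47 to 3.67 times Krt5 in spacer libraries and 1.17 to 1.83 times in Control libraries, with D15L200 and D100L150 wholly above Control in this ratio.

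The basal genes share sequence with wound-induced keratins. Of the exonic runs of 50 bases in Krt14, 13.9% also occur in another gene, and in Krt5 8.52%. The gene that shares more of them than any other is Krt16 for Krt14 and Krt6a for Krt5. Krt16 lay at 491 to 2243 FPKM in spacer libraries and at 211 to 559 in Control libraries, and Krt6a at 432 to 2592 FPKM in spacer and at 241 to 413 FPKM in Control libraries. How the authors counted fragments that match more than 1 gene is not given in the sources used here, and the part of such fragments in the Krt14 and Krt5 values was not tested. The other 7 members shared no run of 50 bases.

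**Figure D1:**
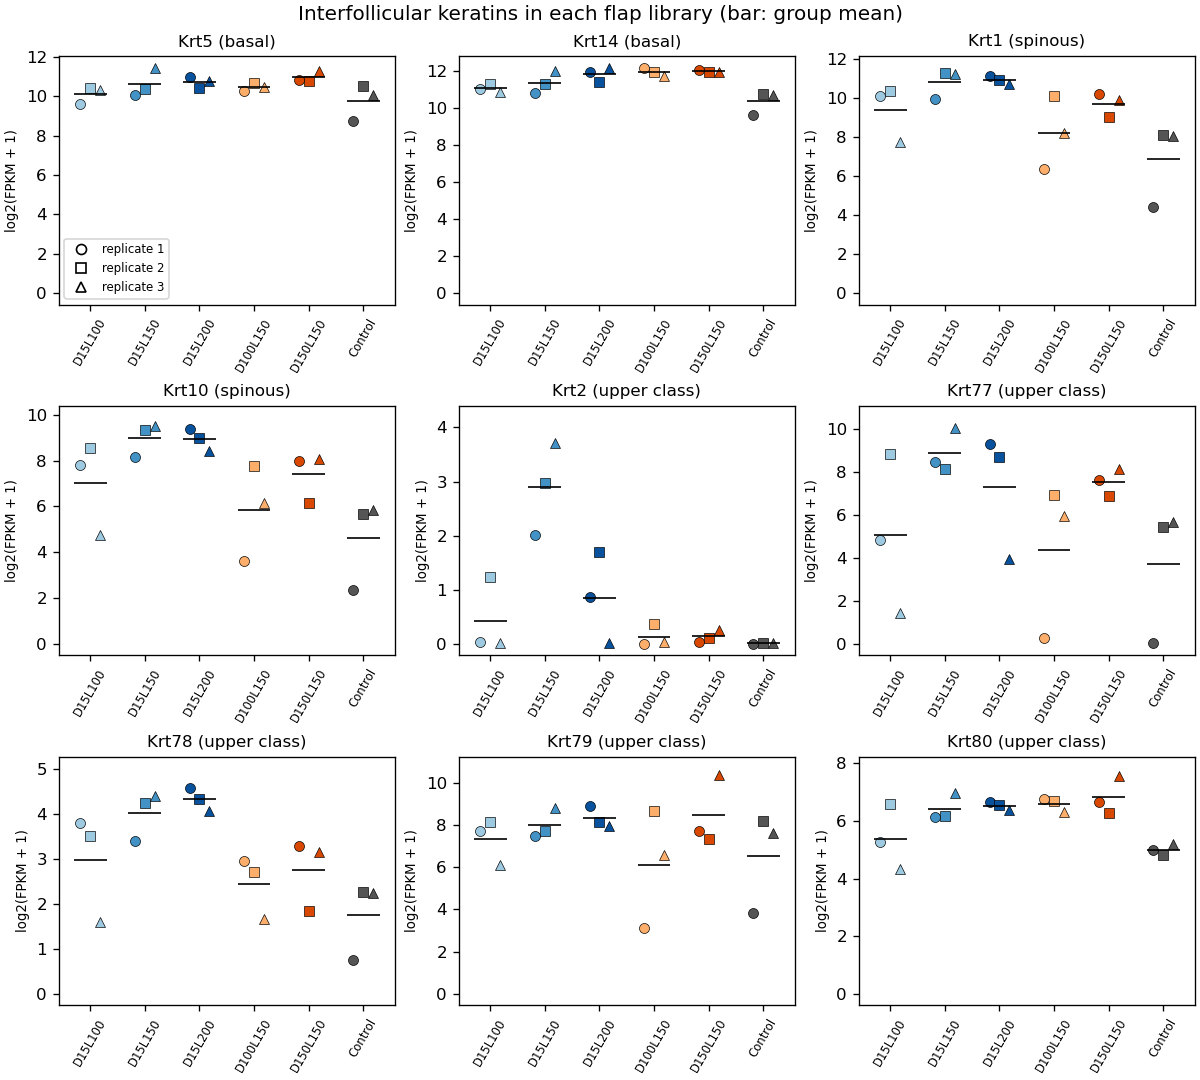
Level of each keratin as log2(FPKM + 1) in the 18 flap libraries, with 1 panel per gene, groups along the horizontal axis, 1 symbol per replicate number and a bar at the group mean. Krt14 is above Control in every spacer library, Krt2 is near 0 outside D15L150 apart from D15L100 2 and D15L200 1 and 2, and Krt1, Krt10 and Krt77 are lowest in Control 1 and D100L150 1.

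The spinous pair showed larger changes than the basal pair and wider spreads. Krt1 had 1068, 1295 and 211 FPKM in D15L100, 980, 2494 and 2365 in D15L150, and 2187, 1913 and 1675 in D15L200. It had 79.7, 1091 and 291 FPKM in D100L150 and 1165, 513 and 932 in D150L150, against 20.0, 269 and 263 in Control. D15L150, D15L200 and D150L150 lay wholly above Control, while D15L100 and D100L150 each had 1 library at or below its highest value. From the highest down, means were 1946 ± 839 FPKM in D15L150, 1925 ± 256 in D15L200, 870 ± 330 in D150L150, 858 ± 572 in D15L100, 487 ± 533 in D100L150 and 184 ± 142 in Control (SD, n = 3 each). Of neighbours in that order, D15L200 and D150L150 did not overlap and all others did.

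Krt10, the type I partner of Krt1, followed it. It had 222, 376 and 26.0 FPKM in D15L100, 284, 657 and 734 in D15L150, and 678, 504 and 345 in D15L200. D100L150 had 11.2, 215 and 70.2 FPKM and D150L150 255, 69.3 and 271, against 4.003, 49.6 and 56.4 in Control. The same 3 groups lay wholly above Control as for Krt1. In the mean of the spacer groups Krt1 was higher by 2.96 ± 0.79 and Krt10 by 3.04 ± 0.90, and neither passed (adjusted p = 0.0561 and 0.0752 with limma).

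The spinous changes were largest over D15L200 and D15L150. Against Control, Krt1 differed by 4.07 ± 1.03 in D15L200 (adjusted p = 0.0653) and by 3.97 ± 1.03 in D15L150 (adjusted p = 0.08). For Krt10 these differences were 4.33 ± 1.17 (adjusted p = 0.0826) and 4.40 ± 1.17 (adjusted p = 0.0864), so none passed in limma's test. In D150L150 they were 2.85 ± 1.03 for Krt1 and 2.80 ± 1.17 for Krt10, in D15L100 2.54 ± 1.03 and 2.43 ± 1.17, and in D100L150 1.37 ± 1.03 and 1.23 ± 1.17. Without Control 1 the spacer mean differed by 1.74 ± 0.76 in Krt1 and 1.90 ± 0.95 in Krt10. In D100L150 the differences were then near 0, at 0.14 ± 0.92 for Krt1 and 0.086 ± 1.16 for Krt10. Those of D15L100 were then 1.32 and 1.29, and those of D150L150 1.63 and 1.66. Without D15L100 3 instead, both passed over the spacer mean and in D15L200, where Krt14, Krt78 and Krt80 were called as well.

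Counted in fragments, Krt1 and Krt10 were nearly matched. The ratio of Krt1 to Krt10 fragments was 0.747 to 1.88 in spacer libraries and 1.08 to 1.26 in Control libraries, although the level of Krt1 spans a 125-fold range over the 18 libraries and that of Krt10 a 183-fold range. With 1 FPKM added to each level, Krt1 was 3.22 to 7.86 times Krt10, a quotient that carries the long Krt10 gene length of the deposited table. Krt10 also overlaps the antisense gene Gm11940. Whether counting used strand is not given in the sources used here, so its fragments cannot be told apart from those of Krt10.

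The upper class did not move together. Krt80, the keratin linked to desmosomes, had 37.7, 94.6 and 19.0 FPKM in D15L100, 69.5, 71.2 and 124 in D15L150, and 99.9, 93.5 and 82.3 in D15L200. It had 107, 103 and 77.8 FPKM in D100L150 and 101.1, 76.1 and 189 in D150L150, against 30.9, 27.6 and 35.4 in Control. All groups but D15L100 lay wholly above Control, and D15L100 3 was below every Control library. Krt80 rose by 1.35 ± 0.35 over the spacer mean (adjusted p = 0.0471 with limma) and by 1.83 ± 0.45 in D150L150 (adjusted p = 0.0475). Leaving out 1 library ended each of these calls in 14 of 18 fits, with adjusted p-values of up to 0.284 over the spacer mean and 0.191 in D150L150. The changes in the other groups, 1.58 ± 0.45 in D100L150, 1.53 ± 0.45 in D15L200, 1.42 ± 0.45 in D15L150 and 0.38 ± 0.45 in D15L100, did not pass. Krt80 overlaps the antisense gene Gm35853 and the microRNA gene Mir1941, which counting without strand would not separate from it.

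Krt78 had low levels throughout. It reached 13.0, 10.4 and 2.03 FPKM in D15L100, 9.47, 17.97 and 19.9 in D15L150, and 22.8, 19.0 and 15.8 in D15L200. In D100L150 it had 6.70, 5.54 and 2.20 FPKM and in D150L150 8.72, 2.62 and 7.90, against 0.687, 3.84 and 3.77 in Control. D15L150 and D15L200 lay wholly above Control and the other groups overlapped it. Krt78 rose by 2.56 ± 0.59 in D15L200 (adjusted p = 0.0462 with limma), a call that 11 of the 18 single left-out libraries ended. The D15L150 change, 2.24 ± 0.59, had an adjusted p of 0.0841, and the spacer mean, 1.54 ± 0.46, one of 0.0746.

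Krt2 was measured above trace level almost only in D15L150. It had 3.03, 6.82 and 12.01 FPKM there, from 276, 617 and 914 fragments. D15L100 had 3, 124 and 1 fragments, D15L200 77, 180 and 1, D100L150 0, 22 and 2, and D150L150 3, 7 and 17, against 0, 2 and 1 in Control. Outside D15L150 the highest values were 2.24 FPKM in D15L200 2 and 1.38 in D15L100 2. The Control libraries together held 3 fragments, so no fold against them is given. On the log2(FPKM + 1) scale D15L150 was higher than Control by 2.88 ± 0.44 (adjusted p = 0.0525 with limma), which missed the threshold and passed it with a pseudocount of 0.1, quantile scaling, TPM scaling or a muscle covariate. Without the D15L150 libraries Krt2 would not have passed the filter, so this difference is partly fixed by the filter and is description only.

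Krt77 was the most variable member. It had 27.8, 462 and 1.69 FPKM in D15L100, 354, 285 and 1071 in D15L150, and 643, 411 and 14.2 in D15L200. D100L150 had 0.213, 121 and 60.6 FPKM and D150L150 198, 117 and 285, against 0.0217, 42.1 and 50.2 in Control, where Control 1 held 2 fragments. D15L150 and D150L150 lay wholly above Control. In D15L100 3 and D15L200 3 Krt77 was low beside a Krt1 level of 211 and 1675 FPKM, and the ratio of Krt77 to Krt1 fragments was 0.0096 and 0.0101 there. Over all spacer libraries that ratio ran between 0.0032 in D100L150 1 and 0.543 in D15L150 3, and in Control libraries between 0.0013 and 0.228. The change over the spacer mean, 2.93 ± 1.64, did not pass (adjusted p = 0.307 with limma), and without Control 1 it was 1.09 ± 1.79.

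Krt79 differed least between spacer and Control flaps for its spread. It had 209, 284 and 66.9 FPKM in D15L100, 174, 208 and 451 in D15L150, and 469, 277 and 244 in D15L200. It had 7.55, 404 and 93.7 FPKM in D100L150 and 206, 160 and 1321 in D150L150, against 13.3, 290 and 192 in Control. Every spacer group overlapped Control. The change over the spacer mean was 1.10 ± 1.02 (adjusted p = 0.548 with limma) and turned to -0.25 ± 1.05 without Control 1. Summed FPKM of 6 sebaceous gland genes was 127 to 492 in D15L100, 382 to 592 in D15L150, 360 to 553 in D15L200, 89.9 to 387 in D100L150 and 241 to 890 in D150L150, against 136 to 566 in Control. The highest sum, like the highest Krt79 level, was in D150L150 3 and the lowest, like the lowest Krt79 level, in D100L150 1. The part of these glands in the Krt79 values was not tested.

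**Figure D2:**
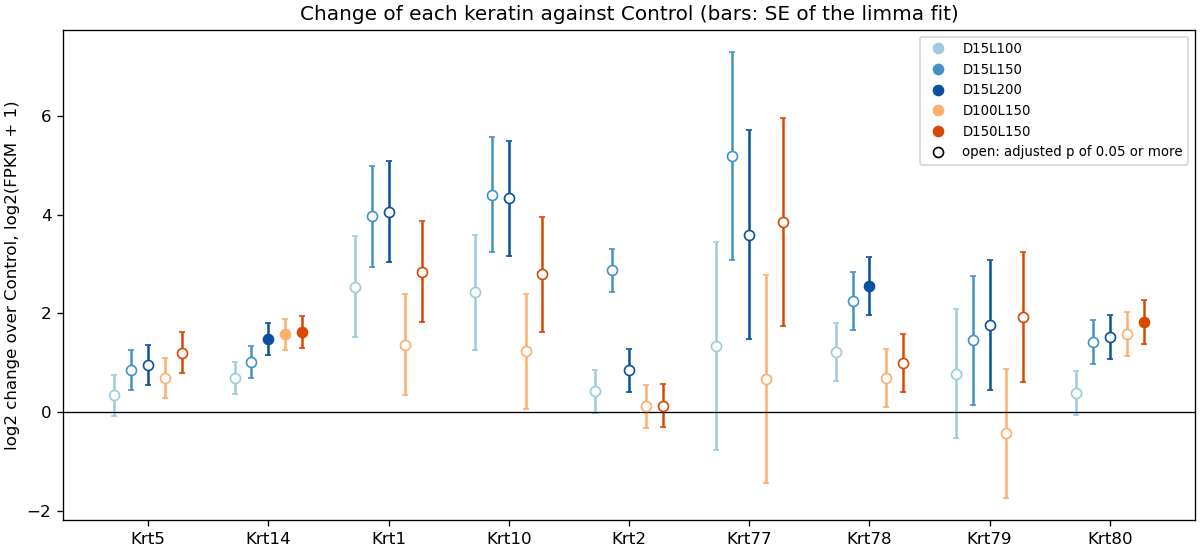
Change of each keratin against Control on the log2(FPKM + 1) scale for the 5 spacer groups, with limma's standard error as bars, filled points for an adjusted p under 0.05 and open points for the rest. Filled points are Krt14 in D15L200, D100L150 and D150L150, Krt78 in D15L200 and Krt80 in D150L150, while the larger Krt1, Krt10 and Krt77 changes have standard errors of 1.03 to 2.11 and open points.

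In counts, 2 of the 9 members were called higher over the spacer mean, Krt14 and Krt80, where 2.84% of all tested genes were called higher. The members' median change was 1.35, that of all genes -0.04, and all 9 estimates were positive. D15L200 had 2 members called (Krt14 and Krt78) against a background of 1.43%, D150L150 had 2 (Krt14 and Krt80) against 2.03%, and D100L150 had 1 (Krt14) against 1.06%. D15L100 and D15L150 had no member called and a background of 0% in limma's test, with 2 and 7 members at an unadjusted p under 0.05 among 431 and 2585 genes, and voom on recovered fragments called no member in either group. No member was called lower, where 0.726% of all genes were over the spacer mean, 0.13% in D15L200, 0.321% in D100L150, 0.398% in D150L150 and 0% in D15L100 and D15L150. Wholly above Control lay 7 members in D150L150 and 7 in D15L150, where 14.3% and 12.4% of all genes were so. These numbers were 5 members in D15L200 (11.2%), 2 in D100L150 (11%) and 1 in D15L100 (2.1%). Krt2 is among the 7 members in D15L150 and among the 7 in D150L150. In D15L150 its place is partly fixed by the filter, as is its place among the 7 unadjusted p-values there. In D150L150 it rested on 3 to 17 fragments, against 0 to 2 in Control.

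Class ratios were taken within each library, as the mean log2(FPKM + 1) of a class minus that of another. They are described without a test, and they put genes of unlike recorded length together, so their level is arbitrary and only their differences between groups are read. The spinous to basal ratio was -2.38 ± 1.71 in D15L100, -1.09 ± 0.49 in D15L150, -1.36 ± 0.50 in D15L200, -4.18 ± 1.94 in D100L150 and -2.94 ± 0.77 in D150L150, against -4.34 ± 1.30 in Control (SD, n = 3 each). The 3 libraries of D15L150 and of D15L200, between -1.92 and -0.52, lay above all Control libraries, between -5.83 and -3.45. D100L150 ranged from -6.25 in its first library to -2.39, which spans the Control range. Its difference from Control, 0.16, was 1.197 without D100L150 1 and turned to -0.73 without D100L150 2. The spacer mean exceeded Control by 1.96, or by 1.21 without Control 1.

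Ratios of single genes were taken within each library too, with 1 FPKM added to each level and nothing added to fragments. The Krt1 level was 0.166 to 1.37 times that of Krt5 in D15L100, 0.867 to 1.89 times in D15L150, 0.945 to 1.41 times in D15L200, 0.065 to 0.671 times in D100L150 and 0.292 to 0.633 times in D150L150, against 0.0488 to 0.249 times in Control. Krt10 to Krt14 fragment ratios were 0.0848 to 0.918 in D15L100, 0.974 to 1.58 in D15L150, 0.455 to 1.14 in D15L200, 0.0151 to 0.333 in D100L150 and 0.106 to 0.416 in D150L150, against 0.0312 to 0.205 in Control. In D15L150 and D15L200 all of these single-library ratios exceeded the Control ones. Both ratios overlapped Control in D15L100 and D100L150, and in D150L150 the Krt1 to Krt5 ratio lay above Control and the Krt10 to Krt14 ratio overlapped it.

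The upper to basal ratio was higher than in every Control library only in D15L150, at -4.96 ± 0.04 against -6.66 ± 0.53 in Control. The other groups lay at -6.35 ± 1.40 in D15L100, -5.81 ± 1.06 in D15L200, -7.27 ± 1.21 in D100L150 and -6.33 ± 0.58 in D150L150. Relative to the spinous pair the upper class had lower group means in spacer flaps on this scale. That ratio was -3.97 ± 0.55 in D15L100, -3.87 ± 0.52 in D15L150, -4.45 ± 0.57 in D15L200, -3.09 ± 0.75 in D100L150 and -3.39 ± 0.55 in D150L150, against -2.32 ± 0.77 in Control. All groups but D100L150 lay wholly below Control. The ratio is highest in Control 1, at -1.43, where Krt2 had no fragment and the pseudocount of 1 sets its value. Krt2 was near that floor in the other Control libraries too, with 2 and 1 fragments, in D100L150 with 0 to 22 and in D150L150 with 3 to 17. The part of this floor in the difference was not tested, and the difference is not read as a fall of the upper class. Krt78 to Krt1 fragment ratios, with no pseudocount, were 0.0322 to 0.0773 in Control. They were 0.0181 to 0.0273 in D15L100, 0.0162 to 0.0217 in D15L150, 0.0212 to 0.0234 in D15L200 and 0.0115 to 0.0191 in D150L150. In D100L150 they were 0.0114 to 0.189, which overlapped Control. Krt77 to Krt1 fragment ratios overlapped Control in every spacer group.

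**Figure D3:**
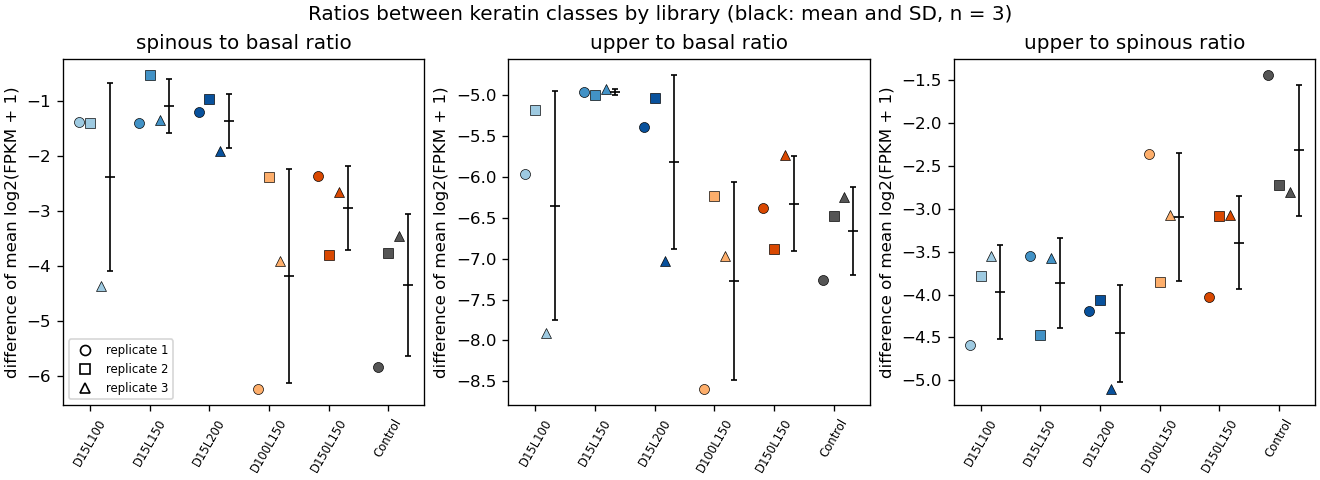
Differences of mean log2(FPKM + 1) between keratin classes in each library, spinous to basal, upper to basal and upper to spinous from left to right, with black marks for the group mean and SD of 3 libraries. The spinous to basal ratio of D15L150 and D15L200 is at -1.92 or higher in each library, and Control is at -3.45 or lower.

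The 9 genes together took 0.706% of all fragments in D15L100 3 to 3.13% in D15L150 3 among spacer libraries, and 0.253, 0.819 and 0.718% in Control 1 to 3. Basal keratins made up 33.2% (D15L150 2) to 93.6% (D100L150 1) of these fragments in spacer libraries and 73.1 to 91.1% in Control libraries. D100L150 1 had a basal share above Control and a total share of 1.13%. It thus combined a high Krt14 level, 4554 FPKM, with the lowest Krt1, Krt10, Krt77 and Krt79 levels of any spacer library.

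**Figure D4:**
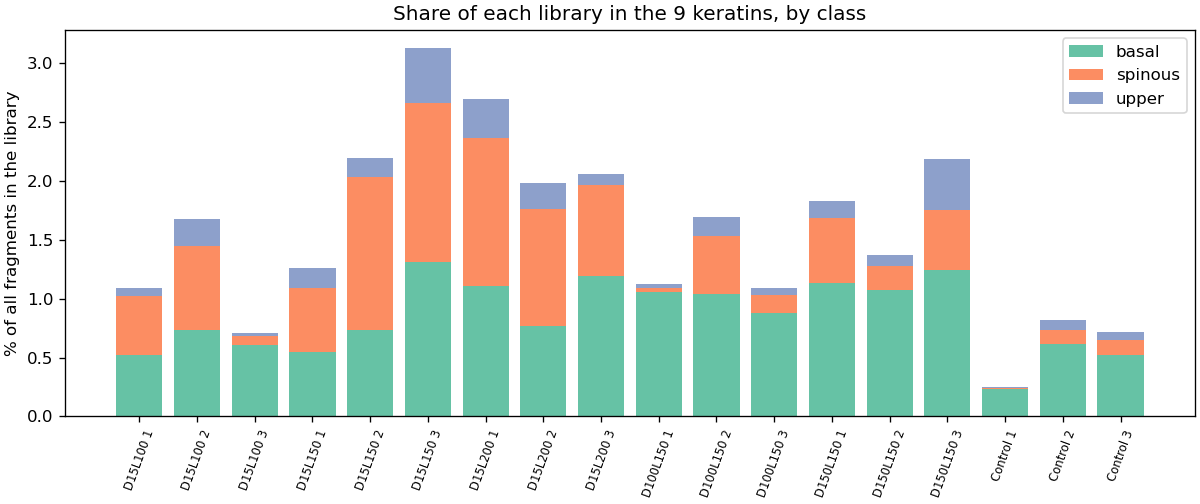
Percent of all counted fragments that fall in the 9 keratins in each of the 18 libraries, stacked by class, basal at the bottom, spinous in the middle and upper at the top. Spacer libraries range from 0.706% to 3.13%, Control libraries from 0.253% to 0.819%, and the spinous part is nearly missing in D100L150 1 and Control 1.

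Between spacer groups no member passed in any of the 6 pairs that differ in 1 label number, where 0% of all genes passed in limma's test. With voom 0 of the 13078 genes passed in each of these pairs, members included. Without adjustment, 11 member differences over the 6 pairs had a p under 0.05 in limma's test. Of 9 members these were 4 in D100L150 against D15L150, where 1492 of 13078 genes had such a p. There were 3 in D15L200 against D15L100 (678 genes) and 2 in D15L150 against D15L100 (617 genes). D150L150 against D15L150 had 1 (648 genes), D15L200 against D15L150 had 1 (96 genes) and D150L150 against D100L150 had 0 (288 genes). Krt2 is counted in every pair with D15L150. It is the only member counted in D150L150 against D15L150 and in D15L200 against D15L150. The Krt2 entries in these counts are partly fixed by the filter and are description only. Neither F test over a series passed for a member, with smallest adjusted p-values of 0.784 over L100, L150 and L200 at D15 and 0.131 over D15, D100 and D150 at L150. Krt2 came nearest, 2.76 ± 0.44 lower in D100L150 than in D15L150 on the log2 scale (adjusted p = 0.0833 with limma), and 2.75 ± 0.44 lower in D150L150 than in D15L150 (adjusted p = 0.219). Krt2 passed the filter only because D15L150 is high, so these differences are partly fixed by the filter and are description only. In D100L150 against D15L150 the log2 differences were -2.61 ± 1.03 for Krt1, -3.18 ± 1.17 for Krt10 and -1.56 ± 0.59 for Krt78, with unadjusted p-values of 0.0235, 0.0166 and 0.0189 and an adjusted p of 0.412 in limma's test. Without D100L150 1 the Krt1 and Krt10 differences were -1.67 and -2.06, and 417 genes had an unadjusted p under 0.05 in this pair. Over single libraries left out, Krt78 ranged from -1.87 to -1.18. Krt14 differed by 0.56 ± 0.32 in the same pair.

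Libraries of 1 group differed more in each member of the spinous and upper classes than in the basal pair, though little more in Krt2 and Krt80 than in Krt5. The within-group SD of log2(FPKM + 1) was 2.80 for Krt77, 1.74 for Krt79, 1.55 for Krt10 and 1.36 for Krt1. It was 0.78 for Krt78, 0.59 for Krt80, 0.57 for Krt2, 0.54 for Krt5 and 0.41 for Krt14, against a median of 0.21 over all genes tested. Krt77 lay at the 99.99th and Krt14 at the 81.7th percentile of these SDs.

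Across the 18 libraries Krt1 and Krt10 had a Pearson r of 0.986, Krt10 and Krt77 0.877, Krt5 and Krt14 0.827 and Krt14 and Krt2 0.089. These are descriptions over libraries that share groups and tissue makeup. The genes most like Krt14 were Fgfbp1, Fabp5 and Ripk4 (r = 0.97, 0.96 and 0.96), and those most like Krt5 were Grhl2, Kdf1 and Ckmt1 (r = 0.97, 0.96 and 0.96). Krt1 was most like Krt10, Hal and Lor (r = 0.99, 0.99 and 0.97), and Krt10 most like Krt1, Hal and Flg2 (r = 0.99, 0.98 and 0.97). Hal encodes histidine ammonia-lyase, and Lor and Flg2 encode loricrin and filaggrin-2 of the cornified layer. For Krt77 the nearest were Ust, Gdpd2 and Clca3a2 (r = 0.95 each), and for Krt78 Aloxe3, an epidermal lipoxygenase, Acp7 and Serpinb12 (r = 0.95 each). For Krt79 they were Elovl3, a fatty acid elongase of sebaceous glands, Aldh3a1 and Art4 (r = 0.97, 0.96 and 0.96). Krt80 was nearest to Sh3bgrl2, Mall and Klk10 (r = 0.96 each), and Krt2 had only looser neighbours, Cyp2b23, Crygn and C7 (r = 0.93, 0.86 and 0.86).

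**Figure D5:**
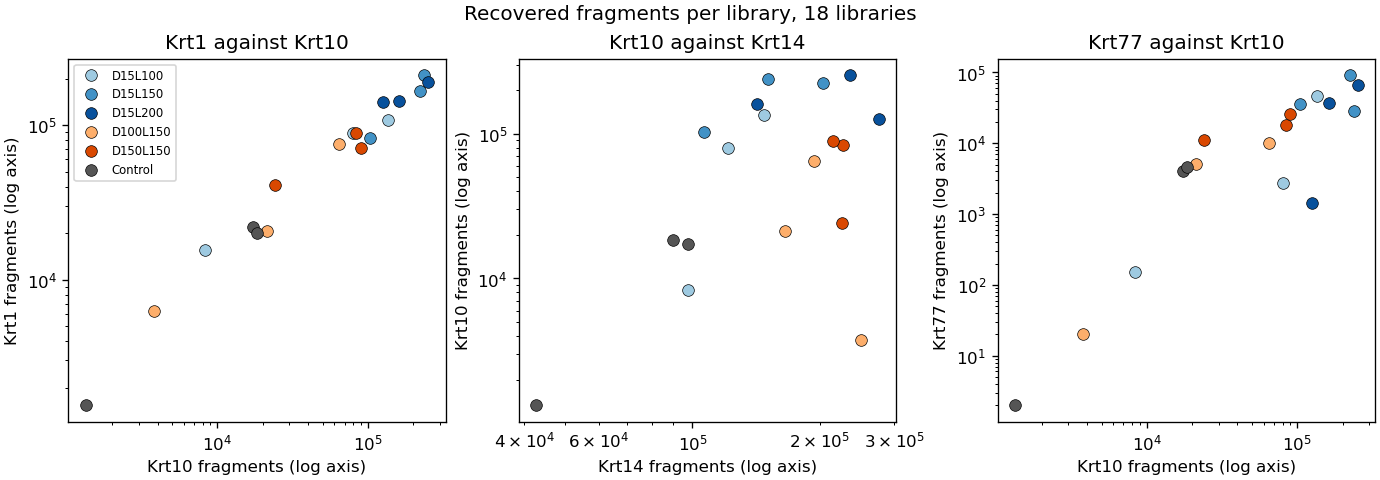
Counted fragments per library on log axes for Krt1 against Krt10, Krt10 against Krt14 and Krt77 against Krt10, coloured by group. Krt1 and Krt10 lie along 1 line with a fragment ratio of 0.747 to 1.88, whereas the Krt10 to Krt14 ratio ranges from 0.0151 to 1.58.

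Other keratinocyte genes were read from lists of known function beside the members. Of 11 genes of the basal layer and its attachment none was called over the spacer mean, with a median change of 0.83. Trp63, the basal transcription factor, changed by 1.01 ± 0.27 (adjusted p = 0.0584 with limma), and the laminin gene Lama3 by 1.02 ± 0.30. Of 16 suprabasal genes that are not keratins, 11 rose, none fell and 5 did not pass, with a median of 2.12. The desmosomal cadherin gene Dsg1b rose by 2.07 ± 0.29, Dsc1 by 2.83 ± 0.40, the protease inhibitor gene Spink5 by 2.69 ± 0.45 and Cdsn, which encodes corneodesmosin, by 2.86 ± 0.49. Dsc1 lay at 15.2 to 126 FPKM in spacer and at 3.94 to 12.1 FPKM in Control libraries.

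The 4 wound-induced keratins Krt6a, Krt6b, Krt16 and Krt17 all rose, with a median of 1.91. Of 11 desmosome genes 10 rose, none fell and Dsg2 did not pass, with a median of 1.65 and examples in Dsp (2.08 ± 0.41), Pkp1 (1.86 ± 0.34), Perp (1.79 ± 0.33) and Jup (1.41 ± 0.26). Of 15 regulators of keratinocyte fate 6 rose and 9 did not pass, with a median of 0.80. Those with the smallest p were Zfp750, Ovol1, Grhl3 and Klf4, which rose by 1.86 ± 0.32, 1.54 ± 0.27, 1.87 ± 0.33 and 1.49 ± 0.28 and encode transcription factors of epidermal differentiation. None of these calls held without Control 1, where no gene was called over the spacer mean. Of 17 hair keratins 2 were tested and none was called, and of 8 keratins of simple and mucosal epithelia 3 were tested and none was called.

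General epithelial markers were read beside the keratins. Of 7 such genes Sfn, Cldn4 and Cdh1 rose by 1.62 ± 0.23, 1.85 ± 0.36 and 1.38 ± 0.30 over the spacer mean, the other 4 did not pass, and the median was 1.38. Their summed FPKM was 392 to 671 in D15L100, 534 to 1227 in D15L150, 781 to 1040 in D15L200, 853 to 1170 in D100L150 and 996 to 1401 in D150L150, against 183 to 353 in Control. D150L150 reached the highest sum, while Krt1 and Krt10 were highest in D15L150 and D15L200. D100L150 1 had a sum of 1170 FPKM beside the lowest Krt1 and Krt10 levels of any spacer library. Relative to these markers, on the mean log2 scale, the basal pair was lower by 0.37 in the spacer mean than in Control, or by 0.38 without Control 1. By group it differed from Control by -0.30 in D15L100, -0.49 in D15L150, -0.42 in D15L200, -0.21 in D100L150 and -0.44 in D150L150. All these groups but D15L100 lay wholly below Control in this ratio. The spinous pair was higher than in Control by 1.58 in the spacer mean, or by 0.83 without Control 1. By group the spinous pair differed from Control by 1.66 in D15L100, 2.76 in D15L150, 2.56 in D15L200, -0.04 in D100L150 and 0.97 in D150L150, and D15L150 and D15L200 lay wholly above Control. Without Control 1 the D15L100, D100L150 and D150L150 differences were 0.91, -0.80 and 0.21. Of 10 skeletal muscle genes none was called, with a median change of -0.86 and sums of 1948 to 3954 FPKM in D150L150 against 7589 to 17304 in Control. With the muscle level as a covariate Krt14 rose over the spacer mean by 1.16 ± 0.25 (adjusted p = 0.0379 with limma), while Krt80 no longer passed (adjusted p = 0.0979). The part of the epithelial share of the tissue in the keratin changes was not tested.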

How the data were processed

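The authors deposited 1 table of FPKM values from mouse skin flaps, 18 libraries in 6 groups of 3. Total RNA was extracted with TRIzol and made into libraries with a VAHTS kit, per the labels' protocols. Per the submitters' processing notes the tools were HISAT2, HTSeq, fastp, DESeq2 and R 3.2.0 on mm10, of unstated role and order. Which gene annotation was counted, and whether by strand, is not given in the sources used here. Each FPKM value divides by each library's total, so very abundant transcripts shift all other values of a library.

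The deposited FPKM values were whole multiples of 1 fragment's value (relative tolerance 1e-07) in all 27743 genes. This gave 28422344 to 35327357 fragments per library, a 1.24-fold range, and it showed the gene lengths behind the table. Values were analysed as log2(FPKM + 1), which understates changes of low genes, for 13078 genes with at least 1 FPKM in at least 3 libraries, leaving out 14665. All 18 libraries entered 1 linear model in limma 3.58.1 (R 4.3.3), with a mean for each group, trended and robust moderation and Benjamini-Hochberg adjustment within each comparison. It was tested on simulated data. The chi-square per gene between libraries of a group was 57.8 or more, so none was counted as a repeat. Replicate numbers come from the sample titles and mark no stated animal or batch. Positions, lengths and shared 50-base runs come from GENCODE on GRCm38.

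The members and lists were chosen with earlier results of these data known. Named beside the 9 members are up to 4 genes per list with the smallest p over the spacer mean and, per member, the 3 genes of highest Pearson r, without predicted genes. The lists were basal attachment, suprabasal non-keratin, wound-induced, simple and mucosal and hair keratins, regulators, desmosome, general epithelial, fibroblast, endothelial, skeletal muscle, immune, adipocyte and sebaceous genes. Dsg2 and the antisense genes were named after their values were seen. One gene that this rule names in the basal attachment list is not reported here. Alternatives were a pseudocount of 0.1, no filter, quantile and TPM scaling, the replicate number as a block, only the groups compared, voom on fragments, a muscle covariate and each library left out. Chosen after seeing the data were GENCODE lengths for Krt10 and Krt78 and leaving out D100L150 1 and Control 1 together.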

Additional observations from a re-analysis of the deposited data

How the results depend on the processing

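Of the 2 members called over the spacer mean, 1 was called with no filter, quantile scaling, voom or a muscle covariate, and 0 without D100L150 1 and Control 1 together, while a pseudocount of 0.1 and TPM scaling kept 2. With the replicate number as a block 1 member was called over the spacer mean (Krt14 by 1.28 ± 0.25, adjusted p = 0.0295 with limma), 0 in D15L200, 0 in D100L150 and 1 in D150L150. Deviations from the group means correlated between same-numbered libraries with r between -0.657 and 0.53, and between differently numbered ones with r between -0.727 and 0.718. That gives no sign of pairing by number, but it cannot exclude a shared animal or batch, since tissue makeup also enters these deviations. D15L150, with 0 members called, had 1 (Krt2) with a pseudocount of 0.1, quantile scaling, TPM scaling or the muscle covariate. Krt2 was tested there partly through its D15L150 values themselves. D15L200, with 2, had 1 with a pseudocount of 0.1, TPM scaling or only the groups compared, and 0 with no filter, voom, the muscle covariate or both libraries left out. D100L150, with 1, had 0 with no filter, only the groups compared, the muscle covariate or both left out. D150L150, with 2, had 1 with quantile scaling, TPM scaling or voom, and 0 with no filter, only the groups compared, the muscle covariate or both left out. The cause of these losses was not tested. More genes were tested without a filter, and the smaller fits held fewer libraries.

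With 1 library left out at a time, the members called ranged from 0 to 5 over the spacer mean and in D15L200, from 0 to 2 in D15L150, D100L150 and D150L150, and were 0 in D15L100, in all 6 pairs and in both series. The lowest numbers over the spacer mean came without Control 1 and the highest without D15L100 3. The class ratios over the spacer mean minus Control ranged from 1.21 to 2.41 (spinous to basal), 0.21 to 0.72 (upper to basal) and -1.68 to -0.999 (upper to spinous). By group the difference from Control turned in sign for spinous to basal in D100L150 (-0.73 to 1.197) and for upper to basal in D15L100 (-0.28 to 1.08) and D100L150 (-1.13 to 0.055). With Krt2 alone as the upper class, upper to spinous was -2.12 over the spacer mean in place of -1.44, -3.35 in D15L200 in place of -2.14 and -2.69 in D150L150 in place of -1.08. Upper to basal then turned, at -0.37 in D15L200 in place of 0.85 and -1.29 in D150L150 in place of 0.33. With a pseudocount of 0.1 upper to spinous was -0.71 in D15L150 in place of -1.55. Recorded or GENCODE lengths for Krt10 and Krt78 moved no spacer mean ratio by more than its spread.

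Changes of single members against Control that turned in sign were all uncalled, and are given as the range over single libraries left out. Over the spacer mean Krt79 ranged from -0.25 (without Control 1) to 1.92. In D15L100, Krt5 ranged from -0.17 (without Control 1) to 0.71, Krt77 from -0.57 (without D15L100 2) to 3.14, Krt79 from -0.57 (without Control 1) to 1.60 and Krt80 from -0.21 (without D15L100 2) to 0.92. In D100L150, Krt77 ranged from -1.17 (without Control 1) to 2.72 and Krt79 from -1.78 (without Control 1) to 1.07 (without D100L150 1). With D100L150 1 and Control 1 both left out, Krt5 was -0.17, Krt77 -0.51 and Krt79 -0.57 in D15L100, and Krt78 -0.072 in D100L150. Depth was not the limit for the abundant members, while Krt2 rested on 0 to 2 fragments in each Control library.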
